A study of Mus musculus with 12 samples.

Results

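The genes Egr1, Egr2, Egr3, Egr4, Klf2, Klf4, Klf6 and Klf10 encode zinc finger transcription factors of the EGR and KLF families. They were taken by Ensembl gene ID, and all 8 are among the 53647 gene IDs of the deposited table. Poly(A) RNA of mouse embryos at embryonic day 9.5 was sequenced in 12 libraries that form 6 groups of 2. The groups, as labelled, are embryos with p53 knocked out (p53 -/-), either untreated or taken 1 h or 3 h after a dose of 30 Gy X-rays, and p53 wild-type embryos (p53 +/+) at the same 3 points. The X-rays were given at 5 Gy per minute to the pregnant mouse. The labels give neither the strain, nor the design of the p53 allele, nor how many embryos or litters went into a library, so p-values measure only the spread between these libraries, which may be technical.

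EGR factors are immediate early genes: their transcription is switched on within minutes of growth factor, stress or calcium signals by proteins that are already in the cell, mainly serum response factor with its ETS partners and CREB, and the messages are short lived. EGR proteins bind GC-rich sites and in turn switch on feedback inhibitors such as the NAB corepressors. KLF2 and KLF4 are switched on in endothelium by blood flow through the kinase ERK5 (gene Mapk7) and MEF2, and both are known to activate inhibitors of the cell cycle. KLF6 and KLF10 are early genes of injury and of TGF-beta signalling. In the embryo Egr2, also called Krox20, marks rhombomeres of the hindbrain, and Klf2 marks endothelium and primitive red cells.

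Values are TPM (a transcript's share of its library, on a common total), so the depth of the libraries is unknown and no counting error can be given. Tests used limma on log2(TPM + 1) over the 15535 genes that reached 1 TPM in at least 2 libraries, and a gene was called at a Benjamini-Hochberg adjusted p under 0.05. Fold changes are differences of mean log2(TPM + 1), which understate the change of genes with low values. Means carry the SD of 2 libraries. Trp53, the gene of p53, went against the labels in 5 of the 6 pairs of libraries of equal time and number. It measured 265 and 79.1 TPM in untreated libraries labelled knockout, 250 and 210 TPM 1 h after the X-rays and 242 and 220 TPM after 3 h. The wild-type-labelled libraries had 114 and 211 TPM untreated, 114 and 66.8 TPM 1 h after the X-rays and 93.7 and 68.0 TPM after 3 h. The difference between labels was not called for Trp53 at any time (its log2 fold change at 3 h was 1.52, with SE 0.535 and limma adjusted p = 0.118). Cdkn1a, a standard target of p53, measured 499 and 444 TPM at 3 h under the knockout label and 6.96 and 6.18 TPM under the wild-type label, where its untreated values were 5.91 and 6.60 TPM. The response of this p53 target thus also went against the labels. Whether the labels were exchanged was not tested, the labels are used as given, and every direction below that rests on them carries this doubt.

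The upstream sequence of 5 of the 8 genes is shown because the family is known for control by a few short promoter elements. The sequences are the 250 bases before the gene start in RefSeq on build GRCm38.p6, which is not the build the submitters name. Capitals mark matches on either strand to a CArG box (the serum response factor site), a MEF2 site, TGACG (the core of the CREB site) and TATAAA. The windows are chr10:67537619-67537868 on the + strand for the third of 5 starts of Egr2, chr6:85513590-85513839 on the - strand for Egr4, chr8:72318812-72319061 on the + strand for Klf2, chr4:55532476-55532725 on the - strand for Klf4 and chr13:5861239-5861488 on the + strand for Klf6. Egr1, Egr3 and Klf10 are not shown.
Egr2: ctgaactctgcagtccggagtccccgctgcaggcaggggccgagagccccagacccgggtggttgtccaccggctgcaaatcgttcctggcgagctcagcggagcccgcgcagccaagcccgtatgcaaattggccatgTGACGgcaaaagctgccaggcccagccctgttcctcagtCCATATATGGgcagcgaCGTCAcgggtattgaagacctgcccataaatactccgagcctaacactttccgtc
Egr4: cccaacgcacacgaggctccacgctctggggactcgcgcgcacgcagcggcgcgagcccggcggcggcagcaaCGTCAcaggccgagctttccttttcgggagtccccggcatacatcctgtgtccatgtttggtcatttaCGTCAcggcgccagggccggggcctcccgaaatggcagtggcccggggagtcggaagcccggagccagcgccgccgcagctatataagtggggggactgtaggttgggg
Klf2: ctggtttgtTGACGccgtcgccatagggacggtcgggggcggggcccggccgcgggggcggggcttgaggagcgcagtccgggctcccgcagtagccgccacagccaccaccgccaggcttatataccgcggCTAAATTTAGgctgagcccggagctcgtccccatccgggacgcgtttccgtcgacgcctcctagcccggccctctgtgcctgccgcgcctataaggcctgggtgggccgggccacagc
Klf4: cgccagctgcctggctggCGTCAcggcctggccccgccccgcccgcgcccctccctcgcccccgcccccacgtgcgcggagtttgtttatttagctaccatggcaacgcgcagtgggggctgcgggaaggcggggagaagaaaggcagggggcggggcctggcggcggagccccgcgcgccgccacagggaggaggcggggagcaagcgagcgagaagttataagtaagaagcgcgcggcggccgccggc
Klf6: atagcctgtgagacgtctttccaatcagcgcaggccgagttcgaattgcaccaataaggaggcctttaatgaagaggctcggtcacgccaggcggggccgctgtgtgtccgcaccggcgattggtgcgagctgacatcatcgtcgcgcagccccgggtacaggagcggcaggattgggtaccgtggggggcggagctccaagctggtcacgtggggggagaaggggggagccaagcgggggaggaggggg
The CArG box of Egr2 lies at positions -72 to -63 from the start, between 2 matches to TGACG. The windows of the other two later starts of Egr2 overlap this one and hold the same box, and the window of the second start holds another CArG box. A CArG box is present in 1.47% of the 32851 windows of the table. Egr4 has 2 matches to TGACG and Klf2 and Klf4 have 1 each, in a table where 17.8% of windows hold one. Klf2 also has a MEF2 site at positions -118 to -109, as do 2.92% of windows.

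The EGR recognition motif GCGNGGGCG was matched once in Klf2 and at 2 places in Klf4, against 4.7% of all windows, and it overlaps the GC box GGGCGG there. GGGCGG, the site of SP factors, was matched at 2 places in Klf2, at 4 in Klf4 and at 1 in Klf6, and 32.7% of windows hold it. TATAAA, present in 12.4% of windows, and the p53 site, present in 0.0639%, had no match in the windows shown. The windows shown are 61.6% to 74% G or C, above the median of 52.4% for the table. A GC-rich window holds GC-rich motifs more readily, so the matches are descriptions of the letters and not of binding.

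**Figure D1:**
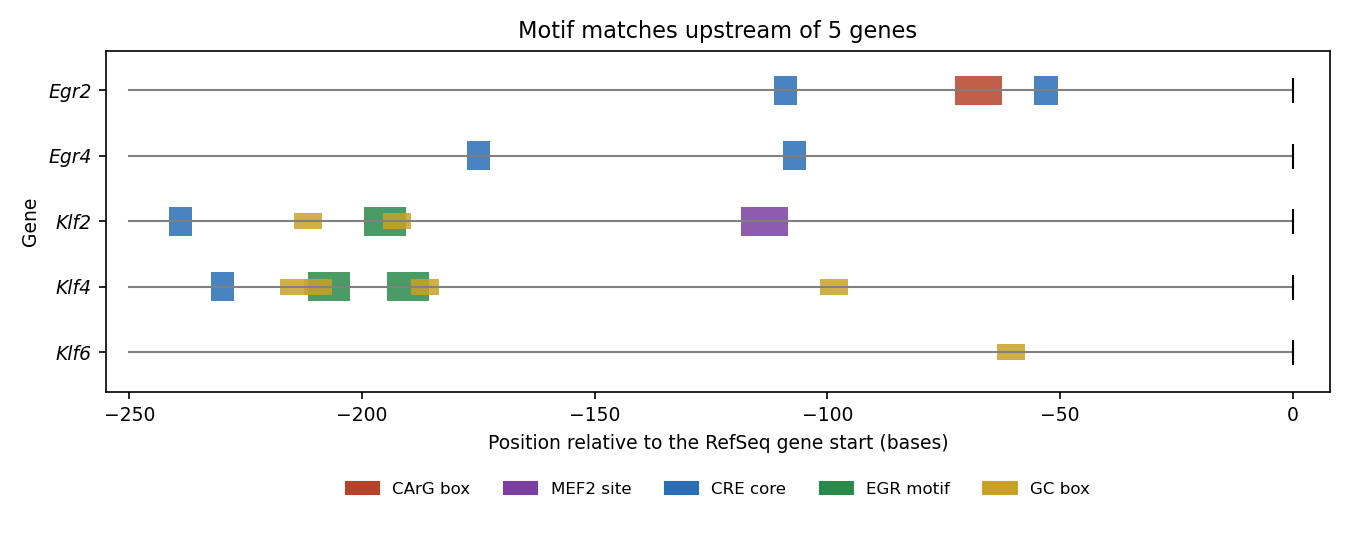
Motif matches in the 250 bases before the RefSeq gene start of Egr2 (the third start), Egr4, Klf2, Klf4 and Klf6. The x axis gives the position in bases relative to the start, and each colour is a motif. The CRE core is TGACG, the EGR motif is GCGNGGGCG and the GC box is GGGCGG. The CArG box was found in Egr2 and the MEF2 site in Klf2.

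At 3 h after irradiation Egr1, Egr3, Klf2 and Klf4 were higher in the libraries labelled knockout than in the untreated ones, and none of the 4 was called at 3 h in the libraries labelled wild type. Egr1 was the most changed, at 19.5 times its untreated mean. Klf6 had 7.40 ± 1.73 TPM at 1 h and 16.8 ± 0.184 TPM at 3 h under the knockout label, with a called rise between these times and none over untreated. Egr2 and Klf10 were not called in any comparison of the fit described above, and Egr4 was too low to be tested in it. In the libraries labelled knockout at 3 h over untreated, 4 of the 7 tested members were called higher and 0 lower, where 6.25% of all tested genes were called higher and 5.87% lower. Egr3 passed the filter on low values only through its 3 h libraries labelled knockout, so this count is not support for a pattern of the family.

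**Figure D2:**
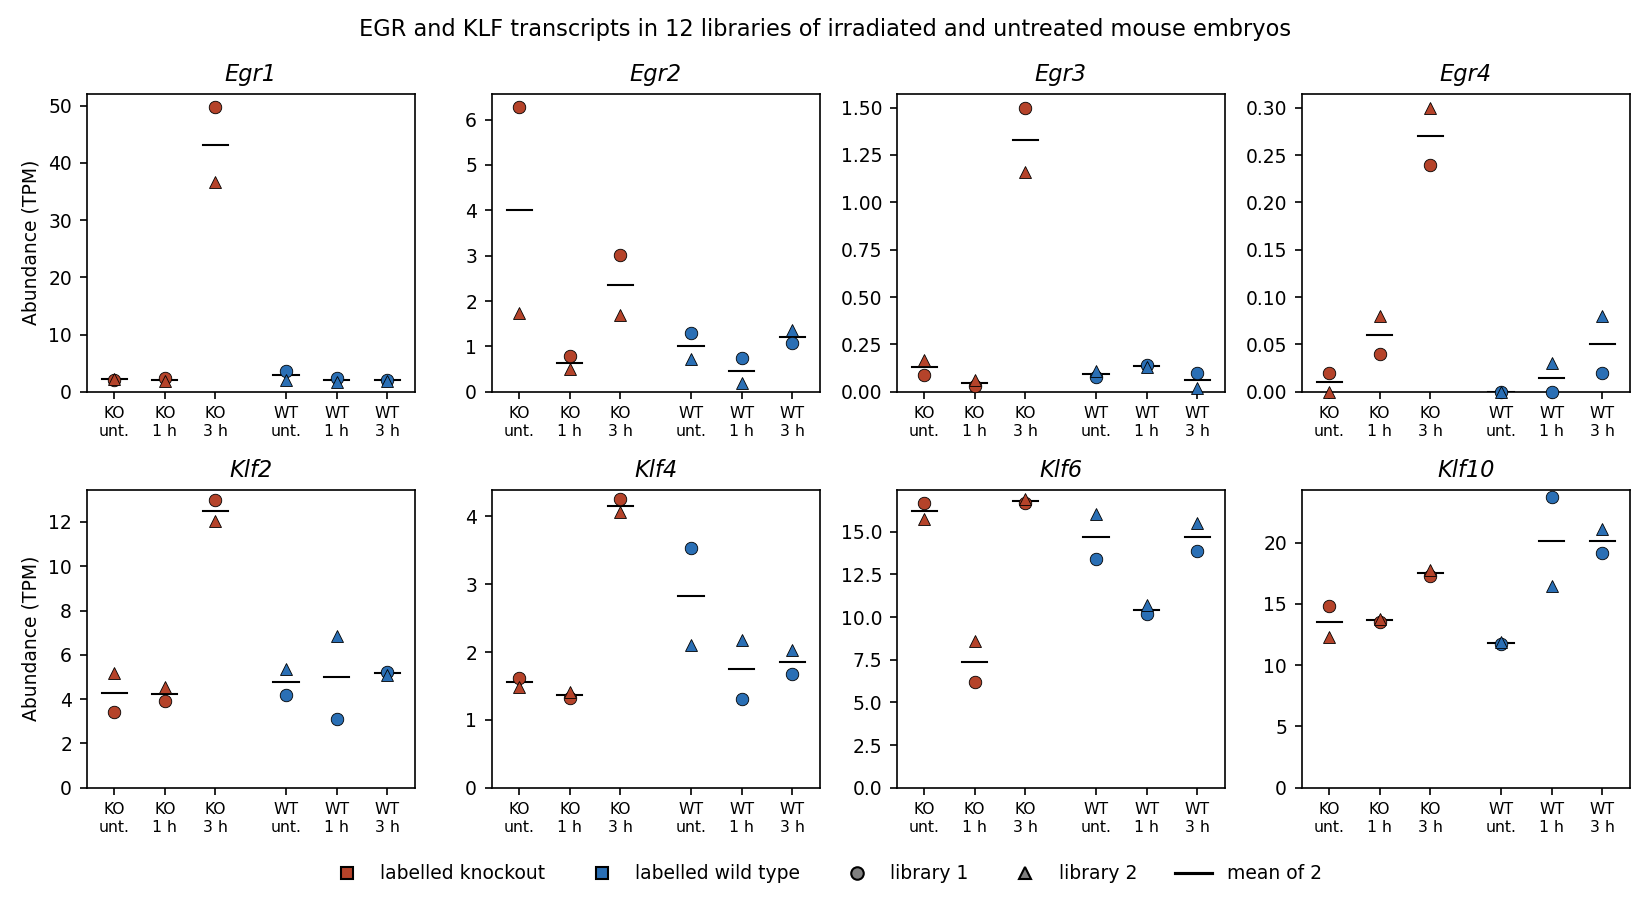
Abundance in TPM (y axis, a separate scale for each gene) of the 8 genes in the 12 libraries, with libraries labelled knockout on the left of each panel and libraries labelled wild type on the right. Circles and triangles are the libraries numbered 1 and 2, and lines are means of 2. Egr1, Egr3, Egr4, Klf2 and Klf4 each have both of their highest libraries at 3 h in the group labelled knockout. How many of all genes have this order was not counted, and 6.25% of all tested genes were called higher in that group than in its untreated one. Egr3 passed the filter on low values only through that pair, and Egr4 was at most 0.30 TPM.

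Egr1 (ENSMUSG00000038418) is the most widely used marker of immediate early transcription. It measured 2.14 and 2.28 TPM in untreated libraries labelled knockout, 2.37 and 1.89 TPM 1 h after the X-rays and 49.7 and 36.6 TPM after 3 h. Under the wild-type label the values were 3.69 and 2.04 TPM untreated, 2.42 and 1.62 TPM 1 h after the X-rays and 2.05 and 1.96 TPM after 3 h. Both 3 h libraries labelled knockout were far above the other 10, which lay between 1.62 and 3.69 TPM and overlapped from each group to the next in the order of means. In the libraries labelled knockout the mean was 43.2 ± 9.26 TPM at 3 h and 2.21 ± 0.0990 TPM without treatment (log2 fold change 3.77, SE 0.258, limma adjusted p = 6.35e-05). Against 1 h the log2 fold change was 3.81 (limma adjusted p = 7.82e-05), and at 1 h against untreated it was -0.04 (SE 0.258).

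Egr3 (ENSMUSG00000033730), the EGR member known from muscle spindles and lymphocytes, was close to 0 in most libraries. It measured 0.09 and 0.17 TPM in untreated libraries labelled knockout, 0.03 and 0.06 TPM 1 h after the X-rays and 1.5 and 1.16 TPM after 3 h. The 6 libraries labelled wild type lay between 0.02 and 0.14 TPM. The 3 h pair labelled knockout was thus the only one above 1 TPM, and the other 5 groups overlapped their neighbours in order of level. The mean was 1.33 ± 0.240 TPM at 3 h and 0.130 ± 0.0566 TPM in the untreated libraries labelled knockout (log2 fold change 1.04, SE 0.169, limma adjusted p = 0.00515). At 3 h over 1 h the log2 fold change was 1.15 (limma adjusted p = 0.00351). Without both untreated libraries numbered 2 the adjusted p of 3 h over untreated was 0.0596. With a pseudocount of 0.1 the log2 fold changes over untreated and over 1 h were 2.65 and 3.30, both called.

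Egr4 (ENSMUSG00000071341), best known from neurons and the testis, stayed under 1 TPM in every library and was not tested. It was listed at 0.24 and 0.30 TPM after 3 h in the libraries labelled knockout, against 0.02 and 0 TPM without treatment, with 0.04 and 0.08 TPM at 1 h. Under the wild-type label it was listed at 0 TPM in both untreated libraries, at 0 and 0.03 TPM after 1 h and at 0.02 and 0.08 TPM after 3 h. The 3 h pair labelled knockout did not overlap any other group. No fold is given against groups listed at or near 0.

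Klf2 (ENSMUSG00000055148), the flow-responsive factor of endothelium, measured 3.41 and 5.17 TPM in untreated libraries labelled knockout, 3.92 and 4.57 TPM 1 h after the X-rays and 12.97 and 12.03 TPM after 3 h. With the wild-type label it reached 4.18 and 5.36 TPM untreated, 3.11 and 6.85 TPM 1 h after the X-rays and 5.22 and 5.11 TPM after 3 h. The 3 h pair labelled knockout lay above every other library, and the other 5 groups overlapped. The mean was 12.5 ± 0.665 TPM at 3 h and 4.29 ± 1.24 TPM in untreated libraries labelled knockout, a ratio of 2.91 (log2 fold change 1.37, SE 0.303, limma adjusted p = 0.0212). At 3 h over 1 h it was 1.37 (limma adjusted p = 0.0229). The call over untreated was lost without the 3 h library 1 (adjusted p = 0.12), the 3 h library 2 (0.0868) or the untreated library 1 (0.135) of the groups labelled knockout, and without both untreated libraries numbered 2 (0.0786). That over 1 h was lost without any of the 4 libraries compared, at adjusted p between 0.0704 and 0.119, and without both untreated libraries numbered 2 (0.0537).

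Klf4 (ENSMUSG00000003032), a factor of epithelial barriers and of pluripotency, measured 1.62 and 1.49 TPM in untreated libraries labelled knockout, 1.33 and 1.41 TPM 1 h after the X-rays and 4.25 and 4.06 TPM after 3 h. Libraries labelled wild type held 3.54 and 2.11 TPM untreated, 1.31 and 2.18 TPM 1 h after the X-rays and 1.68 and 2.03 TPM after 3 h. The 3 h pair labelled knockout was again the highest, with untreated library 1 labelled wild type next to it. The mean was 4.16 ± 0.134 TPM at 3 h and 1.56 ± 0.0919 TPM in untreated libraries labelled knockout, a ratio of 2.67 (log2 fold change 1.01, SE 0.234, limma adjusted p = 0.0250). At 3 h over 1 h it was 1.12 (limma adjusted p = 0.0177). The call over untreated was lost without any of the 4 libraries compared (adjusted p between 0.0990 and 0.127), without both untreated libraries numbered 2 (0.12) and with no filter on low values (0.0582). That over 1 h was lost without any of its 4 libraries (0.0672 to 0.0956) and without both 1 h libraries numbered 2 (0.0590).

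Klf6 (ENSMUSG00000000078), a factor of injury and of blood vessel and liver development, measured 16.7 and 15.8 TPM in untreated libraries labelled knockout, 6.17 and 8.62 TPM 1 h after the X-rays and 16.7 and 16.9 TPM after 3 h. The values under the wild-type label were 13.4 and 16.0 TPM untreated, 10.2 and 10.7 TPM 1 h after the X-rays and 13.9 and 15.5 TPM after 3 h. The 1 h libraries were the 4 lowest of the 12 under both labels. From 1 h to 3 h under the knockout label 5 of the 7 tested members were called higher, where 6.89% of genes were. Egr3 is among the 5 and passed the filter on low values only through its 3 h libraries labelled knockout. The count of 5 is thus no support for a pattern of the family. Klf6, also among the 5, rose from 7.40 ± 1.73 TPM to 16.8 ± 0.184 TPM (limma adjusted p = 0.00605). Its rise was 1.10 on the log2 scale, with SE 0.181. Against untreated, the 1 h level had a log2 fold change of -1.05 (SE 0.181, limma adjusted p = 0.113, and 0.0221 with the replicate number as a block, where 0.663% of genes were called lower). At 1 h over untreated 0.103% of genes were called in either direction, 0 of the 7 members were, and 2 members (Klf6 and Egr2) had an unadjusted p under 0.05. Klf6 under the wild-type label averaged 10.4 ± 0.382 TPM at 1 h and 14.7 ± 1.87 TPM without treatment (log2 fold change -0.45, SE 0.181, limma unadjusted p = 0.0346). At 3 h over 1 h under that label limma called 0 genes (0%), with 928 genes and 1 member, Klf6, at an unadjusted p under 0.05.

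Klf10 (ENSMUSG00000037465), the TGF-beta inducible early gene, was the only member whose highest levels were in irradiated libraries labelled wild type. Libraries labelled knockout measured 14.8 and 12.3 TPM untreated, 13.5 and 13.8 TPM 1 h after the X-rays and 17.3 and 17.7 TPM after 3 h. Those labelled wild type measured 11.7 and 11.9 TPM untreated, 23.7 and 16.5 TPM 1 h after the X-rays and 19.1 and 21.1 TPM after 3 h. The irradiated and untreated wild-type-labelled libraries did not overlap at either time, yet no call was made: the log2 fold change was 0.70 at 1 h (SE 0.188, limma unadjusted p = 0.00512, adjusted p = 1) and 0.72 at 3 h (SE 0.188, unadjusted p = 0.00439, adjusted p = 1). Under the wild-type label limma called 0 of 15535 genes (0%) and 0 of the 7 members at 1 h and again at 3 h, with 618 and 524 genes, and 2 members and 1 member, at an unadjusted p under 0.05. In the libraries labelled knockout Klf10 averaged 17.5 ± 0.304 TPM at 3 h and 13.5 ± 1.77 TPM without treatment (log2 fold change 0.35, SE 0.188, limma adjusted p = 0.294).

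**Figure D3:**
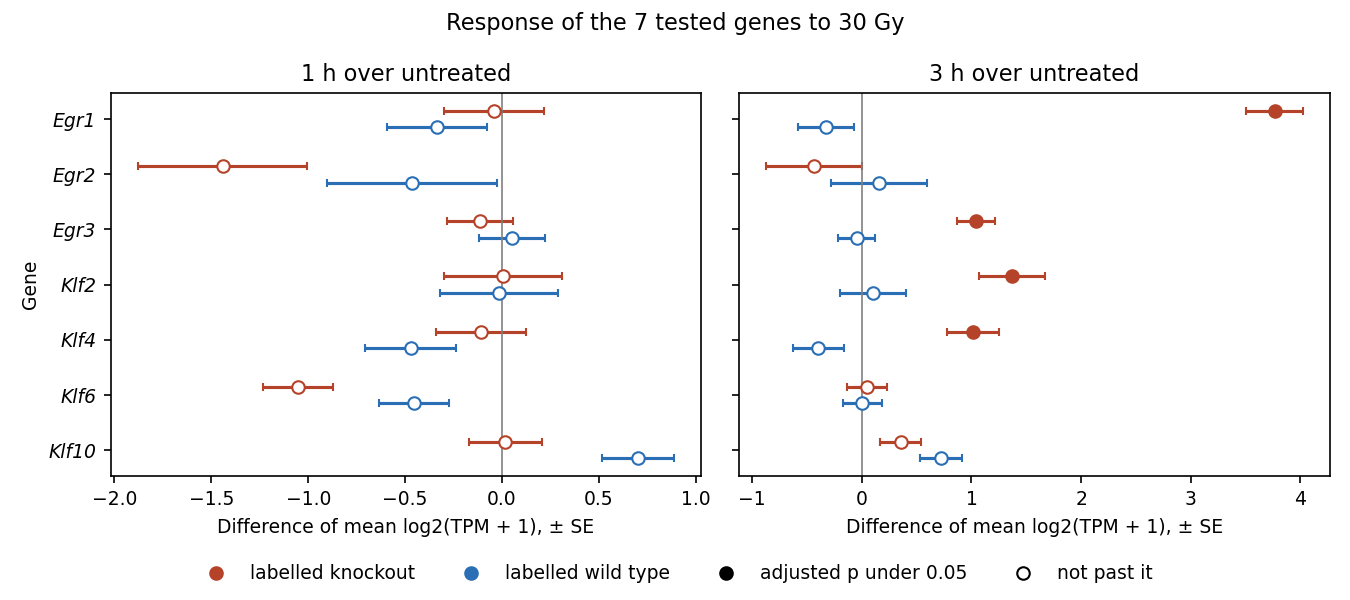
Log2 fold change (x axis, difference of mean log2(TPM + 1), with its SE) of the 7 tested genes at 1 h and 3 h over untreated, in libraries labelled knockout (upper point of each pair) and labelled wild type (lower point). Filled points passed the adjusted p threshold, which only Egr1, Egr3, Klf2 and Klf4 did, at 3 h under the knockout label.

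Egr2 (ENSMUSG00000037868) varied widely within groups. It measured 6.27 and 1.73 TPM in untreated libraries labelled knockout, 0.78 and 0.51 TPM 1 h after the X-rays and 3.02 and 1.70 TPM after 3 h. The wild-type-labelled libraries gave 1.29 and 0.72 TPM untreated, 0.74 and 0.19 TPM 1 h after the X-rays and 1.07 and 1.36 TPM after 3 h. Library 1 was the higher one in 5 of the 6 groups. At 1 h over untreated under the knockout label the log2 fold change was -1.44 (SE 0.438, limma adjusted p = 0.358), and at 3 h it was -0.44 (SE 0.438, adjusted p = 0.631). Of 10 genes that pattern the hindbrain with Egr2, 6 fell at 3 h under the knockout label and 0 rose. Over all tested genes 5.87% were called lower and 6.25% higher. The median log2 fold change of the 10 was -1.0, against -0.12 over all genes. Hoxb2, a direct target of Egr2 in the hindbrain, fell to 12.2 and 11.7 TPM at 3 h in libraries labelled knockout, against 33.9 and 33.1 TPM without treatment (log2 fold change -1.41, SE 0.147). Hoxa2, another target, fell to 4.03 and 5.65 TPM, against 16.7 and 18.1 TPM without treatment (-1.67, SE 0.178). At 3 h under the wild-type label 0 of the 10 were called by limma.

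**Figure D4:**
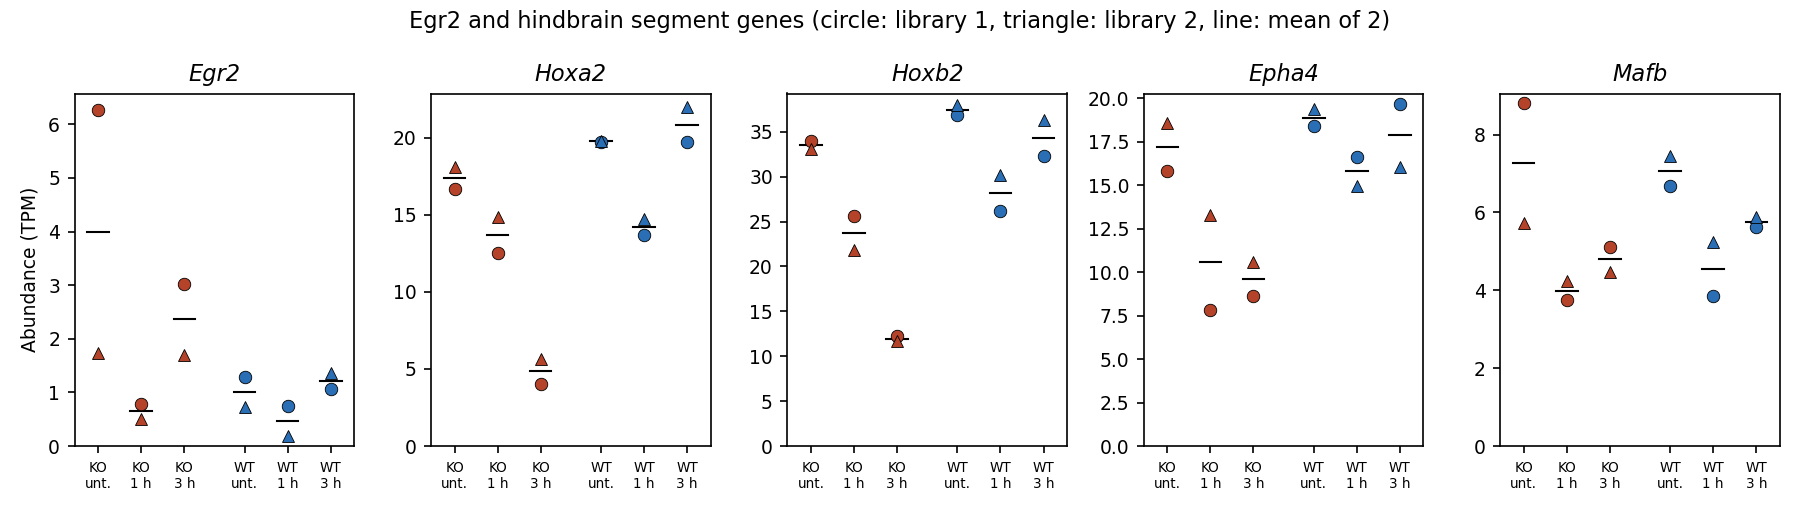
Abundance in TPM (y axis) of Egr2 and 4 hindbrain segment genes in the 12 libraries, with libraries labelled knockout on the left and libraries labelled wild type on the right of each panel. Circles and triangles are libraries 1 and 2, and lines are means. Hoxa2 and Hoxb2 were lowest at 3 h under the knockout label, while Egr2 had its lowest mean at 1 h under each label.

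Markers of the hindbrain's wider tissue moved as well. The summed level of 5 neural progenitor markers was 112 to 114 TPM at 3 h in libraries labelled knockout and 275 to 287 TPM in untreated ones, and 4 of the 5 fell. For 5 neural crest markers it was 52.9 to 56.3 TPM at 3 h and 85.1 to 104 TPM without treatment, and 3 of the 5 fell. Over all tested genes 5.87% were called lower in this comparison. The neural crest sum was already 50.7 to 54.6 TPM at 1 h under the knockout label. Under the wild-type label it was 56.1 to 62.0 TPM at 1 h, 79.5 to 80.3 TPM untreated and 75.2 to 77.4 TPM at 3 h. The neural progenitor sum at 1 h was 209 to 220 TPM under the knockout label. Under the wild-type label it was 233 to 259 TPM at 1 h, 262 to 267 TPM untreated and 245 to 297 TPM at 3 h. In bulk embryos fewer cells of a type and less RNA per cell cannot be told apart, and the part of these markers in the levels of Egr2 and its partners was not tested.

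The labels were compared next. Before treatment and at 1 h, 0 members were called between labels by limma, where 0.0193% and 0.0386% of genes were called in either direction, with 2 members at an unadjusted p under 0.05 at each time. These were Egr2 and Klf4 before treatment and Klf6 and Klf10 at 1 h. Untreated Klf4 was lower under the knockout label (log2 fold change -0.56, SE 0.234, limma unadjusted p = 0.0423). At 3 h Egr1 averaged 43.2 ± 9.26 TPM in libraries labelled knockout and 2.01 ± 0.0636 TPM in libraries labelled wild type (log2 fold change 3.86, limma adjusted p = 5.86e-05). Egr3 averaged 1.33 ± 0.240 TPM and 0.0600 ± 0.0566 TPM under the same labels (log2 fold change 1.13, limma adjusted p = 0.00390). These 2 of the 7 tested members were called higher, as were 5.25% of all genes, and Egr3 was tested only because its 3 h libraries labelled knockout reached 1 TPM. Klf2 averaged 12.5 ± 0.665 TPM under the knockout label and 5.17 ± 0.0778 TPM under the wild-type label (log2 fold change 1.13, SE 0.303, limma adjusted p = 0.05002, not called), and with the replicate block the adjusted p was 0.0113, in a fit that called 9.67% of genes higher. Klf4 averaged 4.16 ± 0.134 TPM and 1.86 ± 0.247 TPM under the knockout and wild-type labels (log2 fold change 0.85, SE 0.234, limma adjusted p = 0.0536, and 0.0278 with the block).

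With median-of-ratios size factors, which moved the median of all genes in this comparison by 0.146 on the log2 scale, Klf2 and Klf4 were called (adjusted p = 0.0143 and 0.0307). That scaling also moved the share of calls that were higher to 66.8%, against 50.8% as deposited. Klf2 was called as well without either 1 h library labelled wild type (adjusted p = 0.0172 and 0.0175) or without both 1 h libraries numbered 2 (0.0228). For Klf4 this held without any 1 of the 4 untreated and 1 h libraries labelled wild type (0.0486 to 0.0492).

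The response at 3 h was larger under the knockout label for 2 members, by a test of the difference between the responses. For Egr1 the difference was 4.10 on the log2 scale (SE 0.364, limma adjusted p = 0.000828), from 3.77 under the knockout label and -0.33 under the wild-type label. For Egr3 it was 1.09 (SE 0.239, limma adjusted p = 0.0477), and this call was lost when any 1 of the 12 libraries was left out (adjusted p between 0.0698 and 0.165), with a pseudocount of 0.1 (a difference of 2.98, adjusted p = 0.155), and without both 1 h or both untreated libraries numbered 2 (0.0766 and 0.314). Egr3 was tested only because the 3 h pair labelled knockout reached 1 TPM, so its call is no support for the count of 2. In all, 2.59% of genes had a called difference in this direction. For Klf2 the difference was 1.27 (SE 0.429, limma adjusted p = 0.184, and 0.0474 with the replicate block, where 5.99% of genes had a called difference in this direction). For Klf4 it was 1.41 (SE 0.330, limma adjusted p = 0.0602, 0.0293 with the block and 0.0393 with size factors). It came from 1.01 under the knockout label and -0.40 under the wild-type label. At 1 h 0 members had a called difference in limma, as against 0.00644% of genes, and Klf6 and Klf10 had an unadjusted p under 0.05.

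The members differed in how closely they tracked each other. Across the 12 libraries the correlation of log2 values was 0.98 between Egr1 and Egr3, 0.85 between Egr1 and Klf2 and 0.82 between Egr1 and Klf4, but 0.40 between Egr1 and Klf6 and 0.17 between Egr1 and Klf10. These values are descriptions: the libraries share groups and numbers, and in Egr1, Egr3, Klf2 and Klf4 the 3 h pair labelled knockout stands above the other 10 libraries. Egr3 passed the filter on low values only through that pair, so its r is no support for a link with Egr1. The 3 genes most like Egr1 by the same measure (r = 0.99, n = 12) were C1rb, Gm9949 and Shisal2b. Shisal2b stood at 20.3 and 13.5 TPM in that pair, against 0.96 TPM or less in the other 10 libraries. Each of these 3 genes passed the filter on low values only through that pair, so their r is no support for a link with Egr1. Klf2 was most like Sertm1 (r = 0.97), Apold1, an early gene of endothelium (r = 0.97), and Mcam, an adhesion molecule of vessels and pericytes (r = 0.96). Mcam stood at 60.3 and 70.7 TPM in the 3 h libraries labelled knockout and between 8.73 and 16.8 TPM elsewhere.

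Klf6 was most like Kdr, the receptor of VEGF on endothelium (r = 0.97), Dsp, desmoplakin (r = 0.95), and Itgb1, the beta1 integrin (r = 0.94). Kdr shared the lower 1 h level, with 20.9 and 23.2 TPM at 1 h under the knockout label, against 32.5 and 32.3 TPM without treatment. For Klf4 the nearest were Mlana (r = 0.95), Papss2 (r = 0.93) and Lgals3bp (r = 0.92), and for Egr2 Sfrp5 (r = 0.88), Tiam1 (r = 0.87) and Smyd1 (r = 0.87). Mlana passed the filter only through the 3 h pair labelled knockout, so its r is no support for a link with Klf4. Klf10 had no close companion, with Helb (r = 0.82), Gpatch3 (r = 0.80) and Gm38268 (r = 0.79) nearest.

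Summed markers of endothelium, primitive red cells, cardiac muscle and visceral endoderm lay above the untreated range at 3 h under the knockout label. In that comparison limma called 6.25% of all tested genes higher and 5.87% lower. The fit with the replicate block called 4534 of the 15535 genes there in either direction, against 1883 without it, so its marker counts stand beside a larger share. The summed level of 8 endothelial markers was 293 to 322 TPM at 3 h and 215 to 232 TPM in untreated libraries with that label. Of these 8 markers 1 was called, Pecam1, the adhesion molecule of endothelial junctions, at 31.5 and 33.3 TPM at 3 h and 23.0 and 17.9 TPM without treatment (log2 fold change 0.65, SE 0.160, limma adjusted p = 0.0332), and 4 were called with the replicate block. The 7 markers of primitive red cells summed to 11087 to 13368 TPM at 3 h and 1936 to 5023 TPM without treatment, with 4 called higher. Their wild-type-labelled sums were 5816 to 6006 TPM untreated, 8579 to 10574 TPM at 1 h and 4525 to 6542 TPM at 3 h. Between labels at 3 h limma called 0 of these 7. Cardiac muscle markers, 5 in number, summed to 2231 to 2267 TPM at 3 h and 1296 to 1570 TPM without treatment under the knockout label, with 0 called by limma and 3 called with the block. Visceral endoderm markers, 8 in number, summed to 167 to 451 TPM at 3 h and 22.9 to 145 TPM without treatment, with 0 called by limma and 1 with the block. Somite markers, 5 in number, went the other way, from 63.3 to 90.4 TPM without treatment to 43.2 to 50.7 TPM at 3 h. Of the 4 tested, limma called 1 lower. The sum of 6 surface ectoderm markers overlapped, at 183 to 308 TPM at 3 h and 225 to 255 TPM without treatment, with 1 called higher by limma.

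Endothelium and primitive red cells, both marked by Klf2, had higher sums at 3 h under the knockout label. The part of either in the Klf2 level was not tested. Of 6 trophoblast markers 2 were at 0 in every library. The sum of the 6 at 3 h was 2.66 to 4.2 TPM under the knockout label and at most 0.86 TPM elsewhere. Only 1 of them was tested, it passed the filter only through that 3 h pair, and it made up most of the sum. The sum is thus no rise of these markers as a set. Of 3 decidua markers 2 were at 0 in every library, and the sum of 5 white blood cell markers was 0.74 to 0.92 TPM at 3 h and 0.30 to 0.56 TPM without treatment. The part of any of these cell types in the member levels was not tested.

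Other immediate early genes were measured beside the members. Of 24 tested genes from a list of 25, 12 rose and 1 fell at 3 h under the knockout label. Over all tested genes 6.25% were called higher and 5.87% lower. The median log2 fold change of the 24 was 0.83, against -0.12 over all genes. Fosl1, a FOS-family subunit of AP-1, stood at 10.4 and 9.54 TPM at 3 h in libraries labelled knockout, against 0.24 and 0 TPM without treatment (log2 fold change 3.30, SE 0.210). Fos stood at 18.6 and 16.6 TPM, against 1.10 and 1.79 TPM (2.94, SE 0.237). Both genes were at or under 2.23 TPM in every library labelled wild type. Arc, an early gene of synapses, had a log2 fold change of 2.06 (SE 0.189) and Ccn1, a matrix protein gene, of 1.40 (SE 0.142). At 3 h under the wild-type label 0 of the 24 were called by limma. Fosl1 passed the filter only through the 3 h pair labelled knockout, so its rise adds no support to the counts and median of the list. The response differed between labels for 7 of the 24 genes, Fosl1 among them, each of them more upward under the knockout label. Over all tested genes 2.59% had a called difference in this direction.

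**Figure D5:**
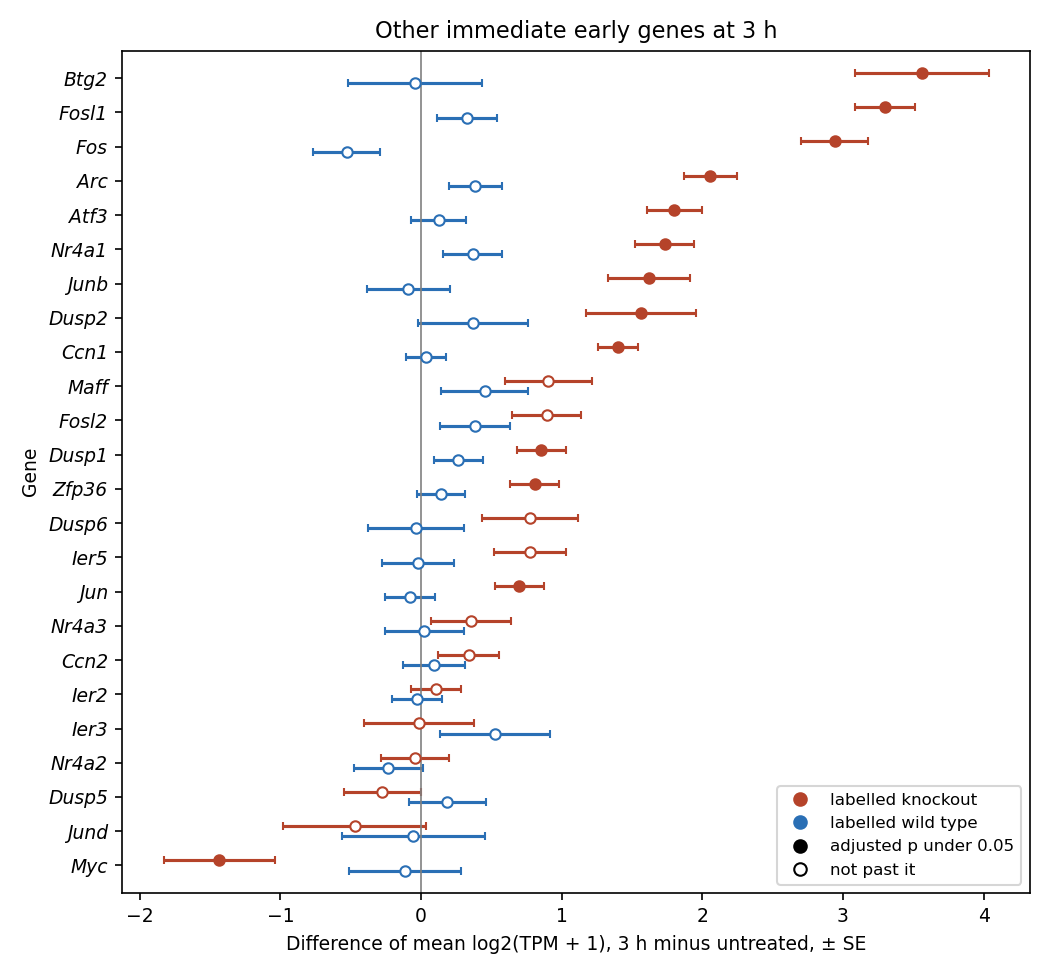
Log2 fold change (x axis, difference of mean log2(TPM + 1), with its SE) of 24 immediate early genes at 3 h over untreated, in libraries labelled knockout (upper point of each pair) and labelled wild type (lower point). Filled points passed the adjusted p threshold: 12 genes were higher and Myc was lower under the knockout label, and none was called under the wild-type label.

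Of 17 tested regulators and corepressors of the EGR factors 0 rose and 1 fell: Mapk7, which encodes ERK5, stood at 33.0 and 42.9 TPM at 3 h in libraries labelled knockout, against 67.1 and 71.3 TPM without treatment (log2 fold change -0.86, SE 0.200, limma adjusted p = 0.0255). The list's median was -0.08, and over all genes 5.87% were called lower and 6.25% higher, so 1 of 17 is close to the share over all genes. Among 11 tested other KLF genes 0 rose and 3 fell, namely Klf13 (log2 fold change -1.04, SE 0.215), Klf16 (-1.20, SE 0.248) and Klf15. Klf15, a factor of muscle and liver metabolism, measured 1.29 and 1.76 TPM after 3 h, against 5.49 and 3.81 TPM without treatment (log2 fold change -1.15, SE 0.209), and under the wild-type label it had 2.73 and 2.60 TPM at 3 h, against 5.60 and 4.50 TPM without treatment (-0.72, SE 0.209, not called). Of 8 tested SP genes, which bind the same GC boxes, Sp6 and Sp9 (log2 fold change 0.74, SE 0.205) rose and Sp8, a limb factor, fell (-1.86, SE 0.366). Sp6, a factor of teeth, limb ectoderm and placenta, measured 23.2 and 24.1 TPM after 3 h, against 6.21 and 6.5 TPM without treatment (log2 fold change 1.74, SE 0.180).

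Of 11 tested targets of EGR factors 3 rose and 0 fell at 3 h under the knockout label: Trp73, the gene of p73 (log2 fold change 1.81, SE 0.235), Gdf15, a secreted stress factor (1.25, SE 0.178), and Rb1, the retinoblastoma gene. Trp73 and Gdf15 passed the filter only through the 3 h pair labelled knockout, so the count of 3 is not support for a rise of these targets, and no median is read from the list. Rb1 measured 23.7 and 36.9 TPM after 3 h, against 5.98 and 9.87 TPM without treatment (log2 fold change 1.81, SE 0.379). Of 6 tested targets of KLF2 and KLF4, 2 rose, where 6.25% of all tested genes were called higher. Both are inhibitors of cyclin-dependent kinases. Cdkn1a (p21), which is also a standard target of p53, measured 499 and 444 TPM after 3 h, against 6.88 and 5.38 TPM without treatment (log2 fold change 6.06, SE 0.187), and between 5.91 and 8.36 TPM in the 6 libraries labelled wild type. At 1 h it was at 79.4 and 76.2 TPM under the knockout label, and the part of KLF2 or KLF4 in its level was not tested. Cdkn1c (p57) had a log2 fold change of 0.67 (SE 0.162). Among the early genes of TGF-beta signalling Tgif1, a corepressor of SMAD proteins, fell (log2 fold change -0.58, SE 0.140). Under the wild-type label at 3 h limma called 0 genes in each of these lists.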

How the data were processed

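The authors deposited TPM for 53647 gene IDs in 12 libraries; TPM are relative within a library, so read depth is lost. RSEM 1.3.3, STAR 2.7.3a, HTSeq 0.12.3, R 4.3.3, DESeq2 1.42.1 and the build GRCm39 (mm39) are named, per the submitters' processing notes, without the step each served. Polyadenylated RNA was sequenced in pairs of 75 bp, per the labels' protocols. Symbols were matched by gene ID from a mouse annotation of an earlier build (52093 IDs, 97.1%), and no gene coordinates of it are given. RefSeq upstream windows of that build were searched for motifs on both strands.

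Genes with at least 1 TPM in at least 2 libraries were tested with limma 3.58.1 in R 4.3.3 on log2(TPM + 1), 1 mean for each group in a joint fit of 12 libraries, a spread moderated along its trend with expression, 6 residual degrees of freedom, and 11 two-sided contrasts, each adjusted by Benjamini-Hochberg over all genes. Same-numbered libraries shared deviations from the means of their groups (correlation 0.332 to 0.796 in 15 pairs of groups), so a fit with the number as a block was set beside it. Correlation within a group was 0.935 to 0.974, and no library was counted as a copy. Alternatives were a pseudocount of 0.1, no filter, size factors, the block, and libraries left out singly or as the pairs numbered 2. Figures used Python 3.11.15 and matplotlib 3.10.9.

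The members, lists and tests were chosen with earlier results of these data known. Named genes were the 8 members, Trp53, up to 4 called genes with the smallest p at 3 h over untreated under the knockout label from each list (2 where none was called), and the 3 genes most correlated with each member that averaged at least 1 TPM. The result for 1 gene of these lists is not reported here.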

Additional observations from a re-analysis of the deposited data

Results flagged for a closer look

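For 2 members the response at 3 h differed between the labels by a test of the difference itself. For Egr1 the knockout-labelled response minus the wild-type-labelled one was 4.10 on the log2 scale (limma adjusted p = 0.000828), and 2 of 2 libraries at 3 h under the knockout label were above every untreated library. For Egr3 it was 1.09 (limma adjusted p = 0.0477), also with 2 of 2 libraries above every untreated one. Egr3 passed the filter on low values only through these 2 libraries, and its call was lost when any 1 of the 12 libraries was left out (adjusted p between 0.0698 and 0.165). At 3 h Trp53 measured 242 and 220 TPM under the knockout label and 93.7 and 68.0 TPM under the wild-type label, a difference that was not called (limma adjusted p = 0.118, or 0.0523 in the blocked fit). The part of the labelling in these differences was not tested.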

How the results depend on the processing

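No member result changed direction: 18 fold changes and differences were recomputed under every alternative and 0 reversed. The calls of Egr1 held in all of them. With the replicate block, 1 member (Klf6, lower) was called at 1 h over untreated under the knockout label and 4 were called both between labels at 3 h and for the difference of the 3 h responses. Size factors also gave 4 between labels at 3 h. Without both untreated libraries numbered 2 the count at 3 h over untreated was 1. The difference of the 3 h responses had 1 called member with a pseudocount of 0.1, without both 1 h libraries numbered 2 and without both untreated libraries numbered 2. When single libraries were left out, 2 to 4 members were called at 3 h over untreated, 3 to 5 at 3 h over 1 h, 2 to 4 between labels at 3 h, and 1 for the difference of responses, where fewer samples enter the fit; elsewhere 0 were called. Otherwise the cause of a lost call was not tested. Over all genes the block called 4534 at 3 h over untreated under the knockout label, against 1883 without it, 4371 against 1603 between labels at 3 h, 4525 against 1740 at 3 h over 1 h, 2078 against 536 for the difference of responses at 3 h and 142 against 16 at 1 h. Without both untreated libraries numbered 2 the 3 h count over untreated was 643, that between labels 955, that of 3 h over 1 h 1031 and that of the response differences 85, and 3 h over 1 h had 1057 without both 1 h libraries numbered 2. Without single libraries these 4 counts ranged over 820 to 1935, 585 to 1650, 723 to 1731 and 224 to 484. At 1 h over untreated under the knockout label, 5 and 0 genes were called without both 1 h or both untreated libraries numbered 2, against 16. At 3 h over untreated under the wild-type label 24 genes were called with the block and 15 with no filter, against 0. With size factors the calls that were higher made up 62.0% at 3 h over untreated under the knockout label, against 51.6% as deposited, and 70.8% against 81.2% at 1 h. The depth is unknown, so the low values of Egr3 and Egr4 carry an error that cannot be stated.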
